A study of Mus musculus with 8 samples.

Results

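Cytochrome P450 enzymes are heme proteins that oxidise steroids, fatty acids, retinoic acid, vitamins and foreign chemicals, with electrons passed to them by reductases and small redox partners. Members of the first 3 families include enzymes induced by drugs and other chemicals, and family 4 holds fatty acid hydroxylases. The other families make or break down steroid hormones, bile acids, vitamin D and retinoic acid. In heart tissue the family is best known for enzymes that turn arachidonic acid into epoxides and hydroxylated products acting on vessels and muscle. Here 89 cytochrome P450 genes were read out of 22180 named genes measured in mouse hearts. They were taken by their symbols alone (Cyp, a family number, 1 letter, a gene number), and the sterol enzyme gene Cyp51 is not among them.

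The hearts came from 4 female and 4 male mice aged 8 months, all heterozygous for Pcyt2 (Pcyt2+/-), the gene of the enzyme that controls phosphatidylethanolamine synthesis from ethanolamine. The labels call the tissue myocardium and each sample a biological replicate, and they give neither strain nor housing. With 1 genotype in all hearts, the only comparison the samples allow is females against males within heterozygotes. Hearts of wild-type mice were not analysed here. Each value is on the log2 scale with the median of its probe set over the 8 arrays set to 0, so it tells in which hearts a gene was higher or lower but not how strongly the gene was expressed. For the same reason the labelled tissue cannot be checked by the presence of heart markers. The mean of 6 cardiac muscle genes lay between -0.06 and 0.04 in females and between -0.03 and 0.02 in males. The mean of 5 atrial genes, in contrast, spread from -1.32 to 0.56 in females and from -1.07 to 0.26 in males. Xist averaged 2.11 ± 0.08 in females and -2.73 ± 0.49 in males (SD, n = 4 each), and the Y-linked gene Kdm5d averaged -0.91 ± 0.02 in females and 0.97 ± 0.08 in males (SD, n = 4 each), so every array matched its sex label.

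The 3 members whose values spread most over the hearts were Cyp2b10, Cyp2e1 and Cyp26b1, and their promoters are shown because the largest differences between hearts in the family rest on them. Cyp2b10 encodes the enzyme that phenobarbital-type inducers raise in mouse liver through the receptor CAR. Cyp2e1 encodes the ethanol- and ketone-metabolising enzyme, abundant in liver and also made in fat cells. Cyp26b1 encodes an enzyme that clears retinoic acid. Each sequence runs from 250 bases before the start of the gene to 50 bases after it, 5′ to 3′ on the strand of the gene, from RefSeq on the build GRCm38.p6. Capitals mark TATAAA and CCAAT or their reverse complements TTTATA and ATTGG.
Cyp2e1, chr7:140763569-140763868, plus strand: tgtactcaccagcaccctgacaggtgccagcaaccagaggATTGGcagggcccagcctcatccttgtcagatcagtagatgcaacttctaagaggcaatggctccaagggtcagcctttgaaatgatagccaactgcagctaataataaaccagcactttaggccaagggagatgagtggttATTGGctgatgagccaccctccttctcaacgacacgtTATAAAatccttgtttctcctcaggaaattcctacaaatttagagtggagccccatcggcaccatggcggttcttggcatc
Cyp2b10, chr7:25897408-25897707, plus strand: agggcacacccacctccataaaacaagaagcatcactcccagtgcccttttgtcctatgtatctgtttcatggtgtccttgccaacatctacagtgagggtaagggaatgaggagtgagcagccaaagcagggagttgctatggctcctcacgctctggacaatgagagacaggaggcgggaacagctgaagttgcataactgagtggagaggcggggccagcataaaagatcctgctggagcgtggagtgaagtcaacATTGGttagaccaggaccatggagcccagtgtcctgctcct
Cyp26b1, chr6:84593761-84594060, minus strand: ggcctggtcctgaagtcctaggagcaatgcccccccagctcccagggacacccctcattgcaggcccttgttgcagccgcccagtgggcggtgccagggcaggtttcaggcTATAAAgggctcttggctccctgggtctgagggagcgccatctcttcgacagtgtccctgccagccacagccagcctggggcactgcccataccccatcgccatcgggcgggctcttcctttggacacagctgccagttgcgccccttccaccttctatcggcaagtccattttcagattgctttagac

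Positions are counted from the start of the gene, with negative numbers before it. In the Cyp2e1 window TATAAA began at position -31 and ATTGG at -210 and -68. In the Cyp26b1 window TATAAA began at position -139. The Cyp2b10 window had no TATAAA and held ATTGG from position 10. The aryl hydrocarbon receptor core GCGTG, or its reverse complement CACGC, began at positions -9 and -101 of the Cyp2b10 window. Promoters were matched by symbol for 69 of the 89 genes. TATAAA, on either strand, was found in 27 of these 69 promoters (39.1%), against 14.2% of 27025 promoters of the same length over the genome. CCAAT was found in 46.4% of the member promoters against 37.9% of all, and GCGTG in 21.7% against 32.5%. The half-sites AGGTCA and AGTTCA were found in 27.5% and 13.0% of the member promoters, against 16.0% and 14.0% of all. A match describes the letters in the window and is not evidence of a bound site.

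The differences between the sexes were small for most P450 genes, as they were for most genes on the array. Means were higher in females for 50 of the 89 genes and higher in males for 39, and the median difference, females minus males, was 0.0047 on the log2 scale, against -6e-04 over all genes. None of the 89 passed the limma test at an adjusted p under 0.05, where 0.0316% of all genes did. At an unadjusted p under 0.05 there were 5 members, or 5.62%, against 6.96% of all genes, so this share was close to the background. Of these 5, 4 were higher in females (background 3.63%) and 1 was higher in males (background 3.32%). Every female lay on 1 side of every male for 3 members, all higher in females, or 3.37% of the family, against 3.74% of all genes. The difference was under 0.1 in size for 81 of the 89 members and for 19132 of all 22180 genes. Its median size was 0.0341 for members and 0.0377 for all genes, so small differences were not particular to the family. The median standard error of a member's difference was 0.0464.

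**Figure D1:**
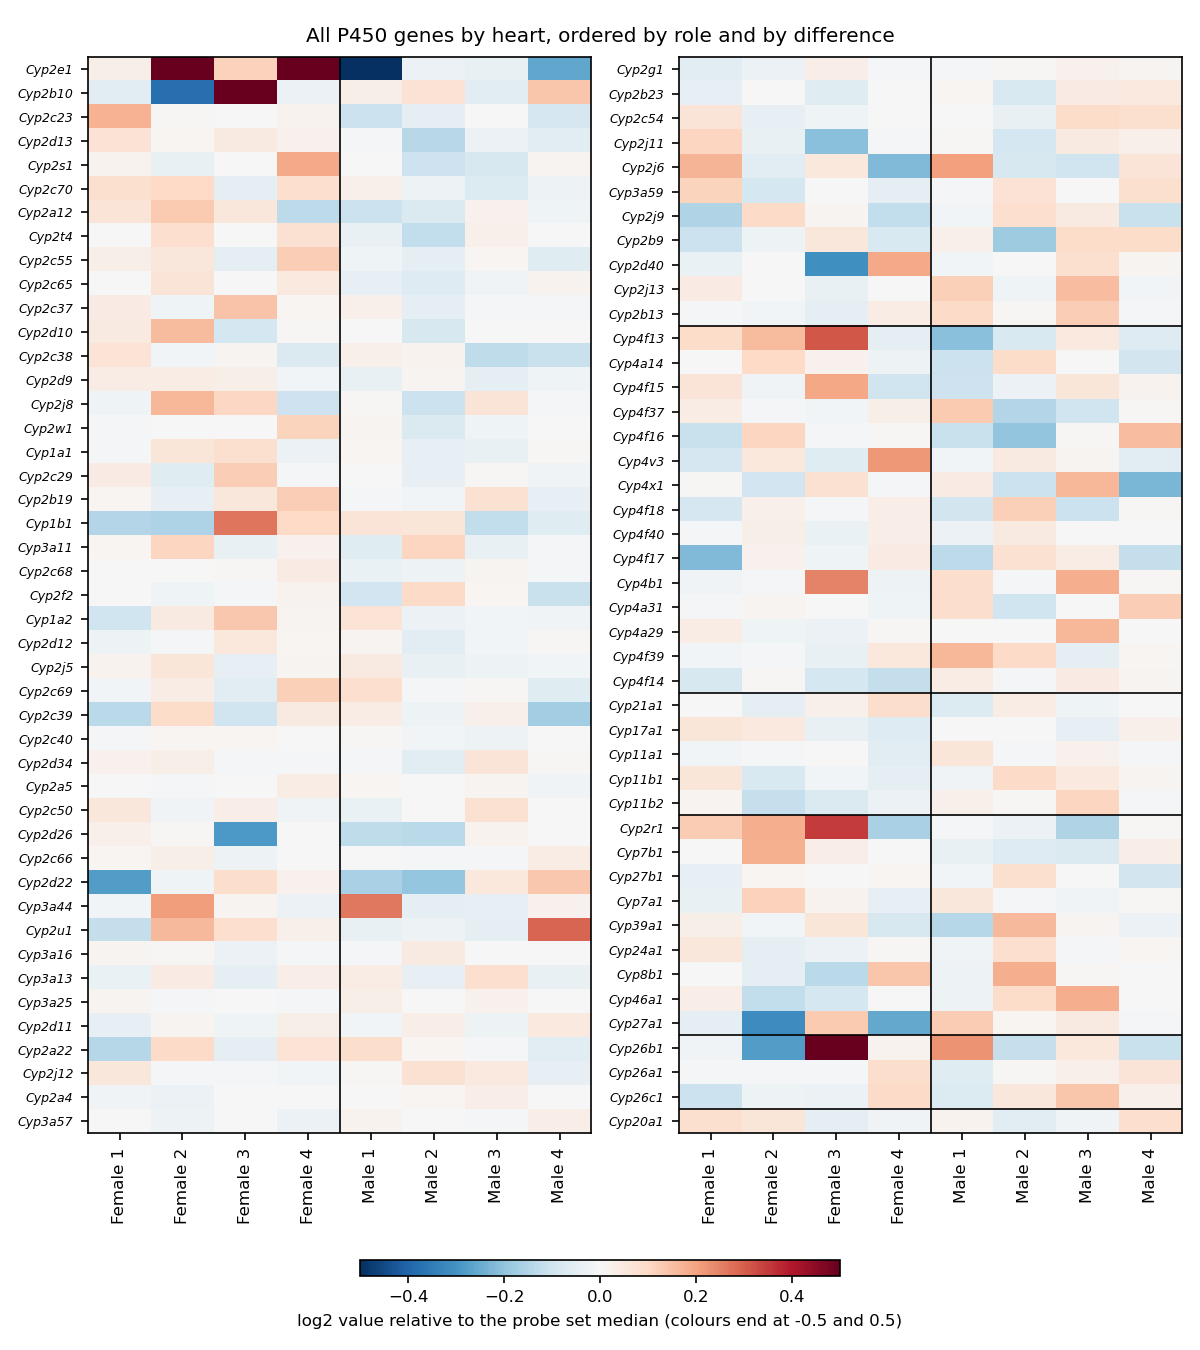
All 89 P450 genes (rows) in the 4 female and the 4 male hearts (columns), on the log2 scale with the probe set median at 0, grouped by role with lines between groups and ordered by the difference within each. Most cells are near 0, and the darkest ones are Cyp2b10 and Cyp26b1 in female 3 and Cyp2e1 in female 2, female 4 and male 1.

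The spread over hearts was another matter for a few members. The range over the 8 arrays had a median of 0.198 for members and 0.223 for all genes, so most members varied no more than a typical gene on this array. It exceeded 1, which is a doubling, for 3 members, or 3.37%, against 0.307% of all genes. Of the 22180 genes, Cyp2b10 had the 10th widest range, Cyp2e1 the 21st and Cyp26b1 the 51st.

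**Figure D2:**
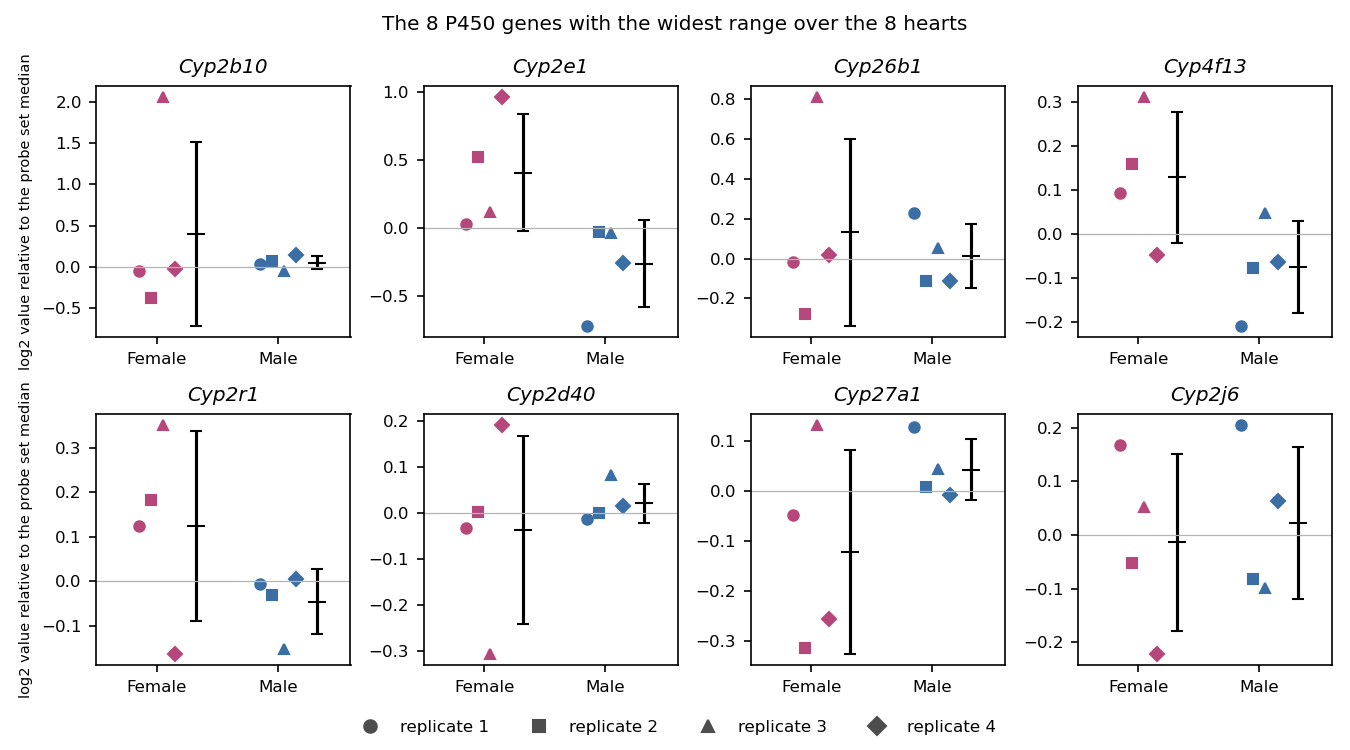
The 8 P450 genes with the widest range over the 8 hearts. Symbols are single hearts, marked by replicate number, females left and males right, on the log2 scale of each panel; the bar is the mean with SD of 4 hearts. Cyp2b10 and Cyp26b1 owe their range to female 3 at 2.06 and 0.81, while Cyp2e1 spreads over both sexes.

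Among the enzymes of families 1 to 3, Cyp2e1 had the largest difference between the sexes in the whole family. Its values were 0.03, 0.53, 0.12 and 0.96 in females 1 to 4, against -0.72, -0.03, -0.04 and -0.26 in males 1 to 4. All females thus lay above all males, but female 1 and males 2 and 3 were close together, and the ends were set by female 4 and male 1. The means were 0.41 ± 0.43 in females and -0.26 ± 0.32 in males (SD, n = 4 each). Females were thus 0.67 ± 0.22 (SE) higher on the log2 scale, with a 95% interval of 0.17 to 1.17, or 1.59-fold. It did not pass the test over all genes (limma, unadjusted p = 0.0137, adjusted p = 0.596). In these whole-tissue samples, more cells of a type and more RNA per cell cannot be told apart.

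The genes whose pattern over the 8 hearts was most like that of Cyp2e1 were Car3, Adipoq, Rpl32, Slc25a1 and Ces1f, with Pearson r of 0.984, 0.967, 0.964, 0.954 and 0.954 over 8 arrays. They are the top 5 of 22179 genes, and r is given as a description only. Car3, a carbonic anhydrase gene strongly expressed in fat cells, was -0.0006, 0.81, 0.05 and 1.61 in females 1 to 4, against -0.95, -0.25, 0.13 and -0.40 in males 1 to 4. Adipoq, which encodes the fat cell hormone adiponectin, was -0.0050, 0.09, 0.05 and 0.33 in females, against -0.28, -0.07, 0.0050 and -0.04 in males. Both genes were highest in female 4 and lowest in male 1, as Cyp2e1 was. The ribosomal protein gene Rpl32 was also highest in female 4 (0.31) and lowest in male 1 (-0.15). So were Slc25a1, the mitochondrial citrate carrier gene, and Ces1f, a carboxylesterase gene.

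Of 9 measured adipocyte markers (10 listed), 7 had higher means in females and 3 of them, the adipokine genes Retn and Adipoq and the droplet coat gene Plin1, had an unadjusted p under 0.05. That is 33.3% of the list, against 6.96% of all genes in either direction and 3.63% higher in females, and none passed after adjustment (limma adjusted p = 0.563, 0.662 and 0.704). The mean of the adipocyte markers was -0.15, 0.17, 0.14 and 0.31 in females 1 to 4, against -0.17, -0.16, 0.15 and -0.13 in males 1 to 4. With this mean as a covariate, the difference of Cyp2e1 was 0.37 in place of 0.67 (limma, unadjusted p = 0.0996, adjusted p = 0.711). Of 12 measured liver markers (13 listed), 11 had higher means in females. Their mean was 0.19, 0.42, -0.03 and 0.04 in females 1 to 4, against -0.05, -0.02, -0.03 and -0.02 in males 1 to 4, and Alb, the serum albumin gene, reached 1.76 in female 1 and 2.69 in female 2. With the liver mean as a covariate the difference of Cyp2e1 was 0.65 (limma, unadjusted p = 0.0565, adjusted p = 0.84). Without females 1 and 2 it was 0.80 (limma, unadjusted p = 0.0208, adjusted p = 0.719). The heart with the highest Cyp2e1, female 4, had a liver marker mean of 0.04. Single liver markers differed in that heart: Alb was 0.02, while Ahsg was 0.49, its highest value of the 8 hearts. The part that fat or liver RNA has in the Cyp2e1 values was not tested beyond these fits.

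Cyp2b10 was high in a single heart. Its values were -0.05, -0.38, 2.06 and -0.03 in females 1 to 4, against 0.03, 0.07, -0.05 and 0.14 in males 1 to 4. Female 3 stood 1.92 above the next heart on the log2 scale, while female 2 was the lowest. Over all 22180 genes and all 8 hearts, Cyp2b10 was the only gene with 1 heart at least 1 above the next. The sexes did not differ beyond this spread (0.40 ± 1.12 in females and 0.05 ± 0.08 in males, SD, n = 4 each; difference 0.35 ± 0.46 SE, 95% interval -0.68 to 1.39, limma adjusted p = 0.945). Without female 3 the difference was -0.20, and without female 2 it was 0.61. With the liver marker mean as a covariate it was 1.08, and without females 1 and 2 it was 0.97, at adjusted p of 0.808 and 0.813.

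The other Cyp2b genes lacked this pattern. In female 3, Cyp2b9 was 0.06, Cyp2b13 -0.05, Cyp2b19 0.06 and Cyp2b23 -0.06. Nr1i3, which encodes CAR, was -0.10 in female 3, and Nr1i2, which encodes the related receptor PXR, was -0.01. The PXR target Cyp3a11 was -0.04 in that heart. Cyp2c29 and Cyp2c37, which inducers of CAR also raise in mouse liver, were 0.12 and 0.14 in female 3, their highest values of the 8 hearts, though both are far smaller than that of Cyp2b10. They were picked after the values were seen. All other Cyp2c genes lay between -0.10 (Cyp2c39) and 0.03 (Cyp2c50) in that heart. Cyp2c29 is the mean of 2 probe sets whose differences between the sexes disagreed in sign (-0.02 and 0.10). The mean of 7 lung and airway markers was -0.02 in female 3, and ran from -0.02 to 0.0034 in females and from -0.01 to 0.04 in males. The part of other tissues in the Cyp2b10 value was not tested. The genes most like Cyp2b10 over the 8 arrays were Mir103-1, Olfr165, 4933432I09Rik, Gm2240 and Magea10 (Pearson r from 0.964 to 0.977). All 5 were highest in female 3, but at values of 0.23, 0.13, 0.13, 0.06 and 0.06.

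**Figure D3:**
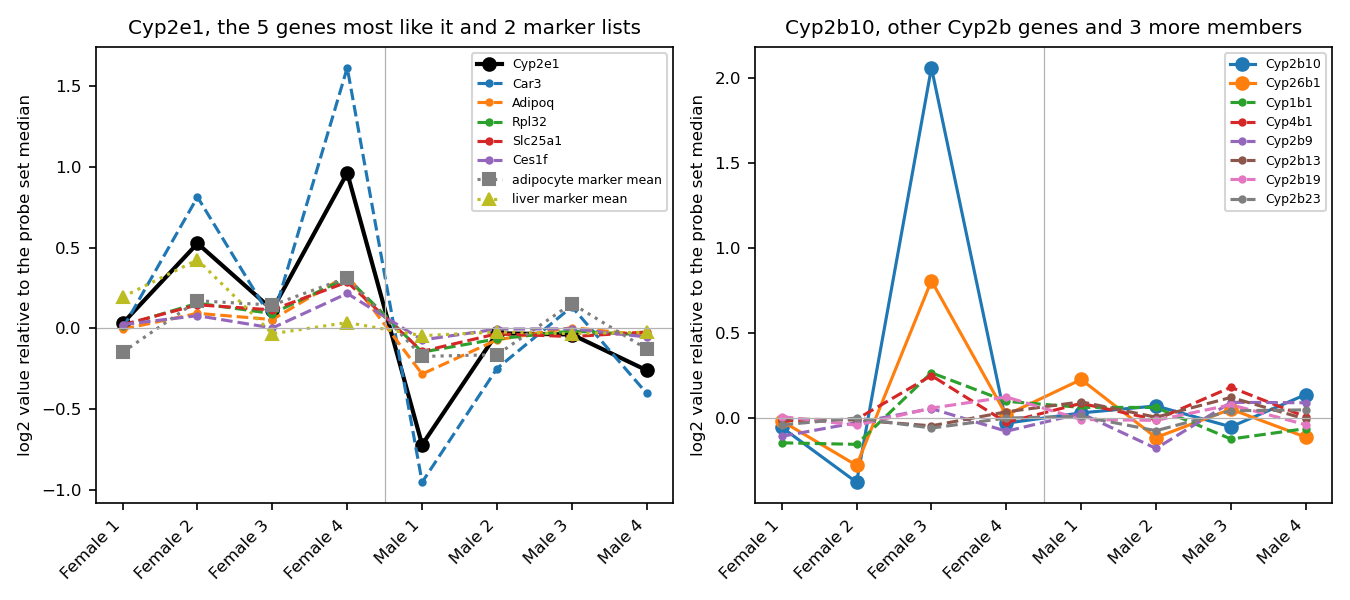
Log2 values, with the probe set median at 0, in each heart, females 1 to 4 left of males 1 to 4. The left panel shows Cyp2e1 with the 5 genes most like it and the means of the adipocyte and liver markers: Car3 follows Cyp2e1 with larger swings, and the liver mean peaks in female 2 at 0.42. The right panel shows Cyp2b10 at 2.06 and Cyp26b1 at 0.81 in female 3, with Cyp1b1 and Cyp4b1 also highest there and the other Cyp2b genes near 0.

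Female 3 held high and low values of other members too. It was the highest of the 8 hearts for 15 of the 89 genes (16.9%, against 12.4% of all genes). Of the members, 5 exceeded 0.25 there, or 5.62%, against 1.15% of all genes in that heart, a level chosen after the values were seen. They were Cyp2b10, Cyp26b1, Cyp2r1, Cyp4f13 and Cyp1b1. No other heart had more than 1 member above 0.25. Female 3 was also the lowest heart for 13 members, and 2 were under -0.25 there, Cyp2d40 at -0.31 and Cyp2d26 at -0.29, against 3 in female 2 and at most 1 in each other heart. Cyp1b1, an aryl hydrocarbon receptor target that acts on estrogens and retinoids, was -0.15, -0.15, 0.27 and 0.10 in females 1 to 4, against 0.06, 0.06, -0.12 and -0.06 in males 1 to 4. Cyp1a1, the strongest target of that receptor, was also highest in female 3, at 0.08, and ranged over only 0.12 in all. Cyp1a2 was highest there too, at 0.13. The 4 measured other targets of that receptor were mixed in female 3. Aldh3a1 was highest there at 0.18 and Ahrr lowest at -0.16, while Nqo1 was 0.12 and Tiparp 0.0042. In female 3 the median over all members was -0.0018, so the family as a whole was not shifted.

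The remaining members of families 1 to 3 with an unadjusted p under 0.05 had small differences. Cyp2c23, which encodes an arachidonic acid epoxygenase, was 0.17, 0.0044, 0.0039 and 0.02 in females 1 to 4, against -0.11, -0.05, -0.0039 and -0.09 in males 1 to 4. The groups did not overlap, but 3 of the females lay within 0.02 of 0 and female 1 set the mean (difference 0.11 ± 0.05 SE, limma adjusted p = 0.696). Without female 1 the difference was 0.07, and the unadjusted p was 0.0411, or 0.0797 with the replicate block. Cyp2d13, listed in RefSeq as a transcribed pseudogene although its symbol does not say so, was 0.07, 0.0087, 0.05 and 0.02 in females, against -0.0087, -0.14, -0.03 and -0.05 in males. Again the groups did not overlap, and male 2 was lowest (difference 0.09 ± 0.04 SE, adjusted p = 0.662). On the side of males, the largest differences in these families were those of Cyp2b13 (-0.06), Cyp2j13 (-0.06) and Cyp2d40 (-0.06), and Cyp2d40 turned to 0.03 without female 3, where it was lowest at -0.31.

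Within subfamilies the differences were small and their directions mixed, and no subfamily was tested. Means were higher in females for 49.6% of all genes. Of 14 Cyp2c genes, which include the arachidonic acid epoxygenases, 12 had higher means in females, with a median difference of 0.03. Of 7 Cyp2j genes, the other epoxygenase subfamily, 5 had higher means in males (median -0.03), and of 7 Cyp3a genes 6 did (median -0.01). The other subfamilies of more than 2 genes were nearer even: means were higher in females for 5 of 9 Cyp2d genes, 6 of 9 Cyp4f genes, 2 of 5 Cyp2b genes, 2 of 4 Cyp2a genes and 1 of 3 Cyp4a genes. Cyp2j6 had the widest range of the Cyp2j genes, with 0.17, -0.05, 0.05 and -0.22 in females, against 0.21, -0.08, -0.10 and 0.06 in males, and the sexes overlapped fully. The medians given are smaller than the standard error of a typical member. Genes of 1 cluster are close in sequence, so a probe set may read a neighbour as well, and members of a cluster are not independent.

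**Figure D4:**
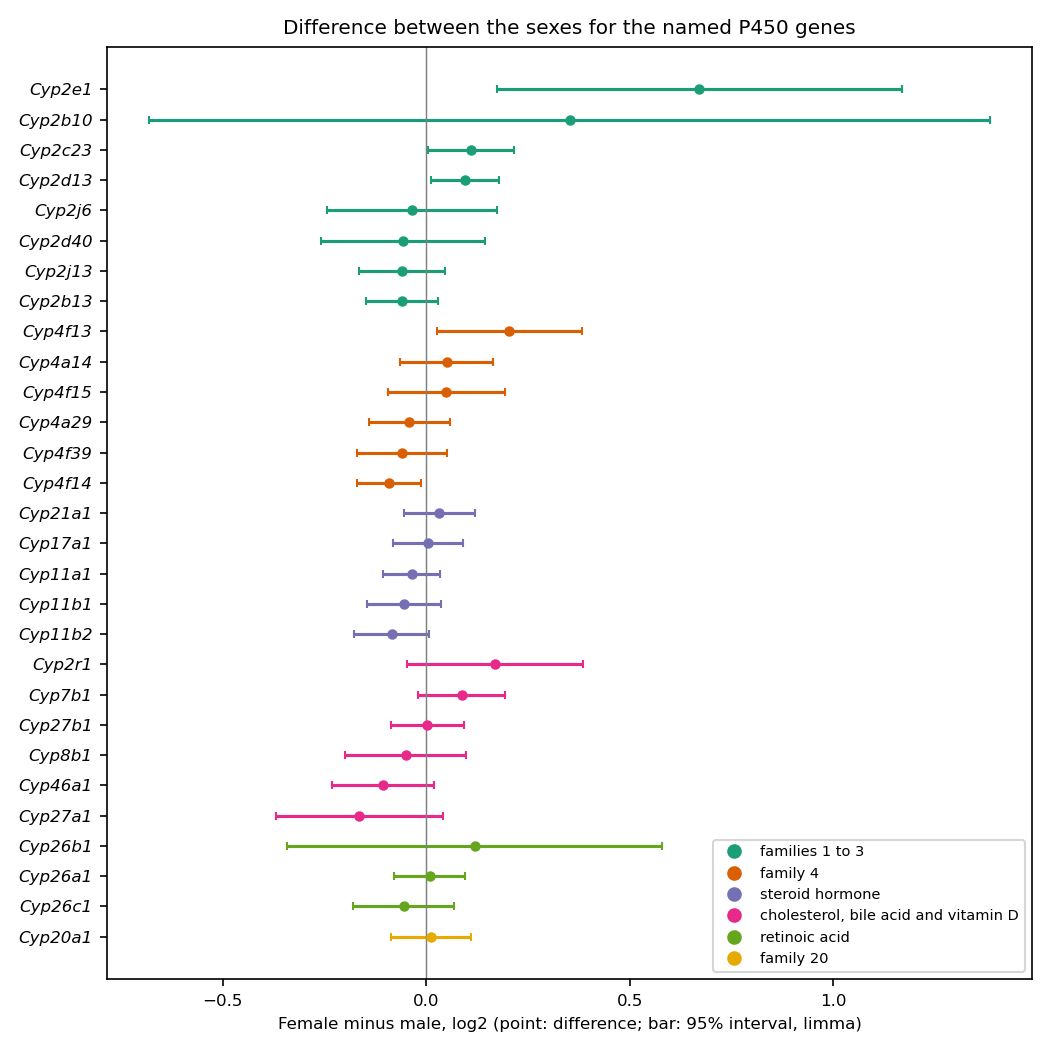
Females minus males on the log2 scale for the 29 P450 genes named by rule, with 95% intervals from limma, coloured by role. The intervals of Cyp2e1, Cyp2c23, Cyp2d13, Cyp4f13 and Cyp4f14 do not include 0 before adjustment, and the interval of Cyp2b10 runs from -0.68 to 1.39.

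Family 4 held the other members with an unadjusted p under 0.05, in opposite directions. Cyp4f13, a fatty acid hydroxylase gene of the Cyp4f cluster on chromosome 17, was 0.09, 0.16, 0.31 and -0.05 in females 1 to 4, against -0.21, -0.08, 0.05 and -0.06 in males 1 to 4. Females 1, 2 and 3 lay above all males, and female 4 lay among them (difference 0.20 ± 0.08 SE, or 1.15-fold, limma adjusted p = 0.662). Cyp4f14, whose enzyme inactivates leukotriene B4 in mice, was -0.08, 0.0043, -0.09 and -0.12 in females, against 0.04, -0.0043, 0.04 and 0.01 in males. Female 2 lay among the males, and the difference was -0.09 ± 0.03 (SE, adjusted p = 0.656). Its unadjusted p was 0.0267, or 0.0576 with the replicate block. Of the 15 family 4 genes, 9 had higher means in females and the median difference was 0.01. Next in size were Cyp4f15 (0.05) and the fatty acid hydroxylase gene Cyp4a14 (0.05) on the side of females, and Cyp4f39 (-0.06) and Cyp4a29 (-0.04) on that of males. Cyp4b1 was high in female 3 at 0.25, and in male 3 at 0.18, with the other hearts between -0.03 and 0.09.

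None of the 5 steroid hormone enzyme genes had an unadjusted p under 0.05. Cyp11b2, the aldosterone synthase gene, was -0.08 in females minus males (± 0.04 SE, limma adjusted p = 0.726), and the related Cyp11b1, which makes glucocorticoids, was -0.06. Cyp11a1, which starts steroid synthesis from cholesterol, had a difference of -0.04 as the mean of 2 probe sets that disagreed in sign (-0.08 and 0.0098). Cyp21a1 and Cyp17a1, whose enzymes act on the way to corticoids and sex steroids, had differences of 0.03 and 0.0047. Of 4 adrenal markers, 2 had higher means in each sex.

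Of the 9 genes of cholesterol, bile acid and vitamin D metabolism, 4 were higher on average in females and 5 in males, and for 0 was the unadjusted p under 0.05. Cyp2r1, the gene of a vitamin D hydroxylase, was 0.13, 0.18, 0.35 and -0.16 in females 1 to 4, against -0.0061, -0.03, -0.15 and 0.0061 in males 1 to 4. Females 1, 2 and 3 were above all males and female 4 was below all of them (difference 0.17 ± 0.10 SE, 95% interval -0.05 to 0.39). It was 0.09 without female 3 and 0.27 without female 4 (limma, unadjusted p = 0.00296, adjusted p = 0.465), and 0.26 with the adipocyte covariate. Cyp27a1, the mitochondrial sterol hydroxylase gene, was -0.05, -0.31, 0.13 and -0.26 in females, against 0.13, 0.0079, 0.04 and -0.0079 in males. Females 2 and 4 were the lowest hearts and female 3 was the highest (difference -0.16 ± 0.09 SE, 95% interval -0.37 to 0.04). Without female 3 that difference was -0.25, and without female 2 it was -0.10. With the adipocyte marker mean as a covariate it was -0.11, and with the liver marker mean it was -0.04. The brain cholesterol hydroxylase gene Cyp46a1 had a difference of -0.11 (-0.07 without male 3), the oxysterol hydroxylase gene Cyp7b1 one of 0.09 (0.05 without female 2), the bile acid gene Cyp8b1 one of -0.05 and the vitamin D activating gene Cyp27b1 one of 0.0029.

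Among the 3 retinoic acid hydroxylase genes, Cyp26b1 followed Cyp2b10 in being high in female 3. Its values were -0.02, -0.28, 0.81 and 0.02 in females 1 to 4, against 0.23, -0.11, 0.05 and -0.11 in males 1 to 4. Female 3 was 0.58 above the next heart, male 1, and female 2 was again the lowest. Between Cyp26b1 and Cyp2b10, Pearson r over the 8 arrays was 0.922, with female 3 the highest heart for both. The difference between the sexes was 0.12 ± 0.20 (SE, 95% interval -0.34 to 0.58) and turned to -0.11 without female 3. It was 0.26 without female 2, 0.19 without male 1, 0.08 without male 2 and 0.08 without male 4. With the liver marker mean as a covariate it was 0.47 (limma, unadjusted p = 0.0254, adjusted p = 0.801), and without females 1 and 2 it was 0.40. Cyp26a1 and Cyp26c1 were at -0.0043 and -0.03 in female 3 and had differences of 0.0084 and -0.06. The orphan enzyme gene Cyp20a1 had a difference of 0.01.

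Members did not in general move together. Over the 3916 pairs of members the median Pearson r was 0.00251, with quartiles of -0.282 and 0.279 over 8 arrays. Between Cyp2e1 and Cyp2b10 r was -0.0681, whereas it was 0.922 between Cyp26b1 and Cyp2b10. For the latter pair female 3 was far above the other hearts in both genes, and r without female 3 was not computed. In males 1 to 4 Cyp26b1 was 0.23, -0.11, 0.05 and -0.11, against 0.03, 0.07, -0.05 and 0.14 for Cyp2b10.

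No gene in the lists of P450 partners passed the limma test after adjustment. Of 7 measured electron transfer partners (9 listed), 4 had higher means in females and 0 had an unadjusted p under 0.05. Cyb5a, the cytochrome that supports several P450 reactions, had a difference of 0.16 ± 0.07 (SE), and the reductase gene Cyb5r3 one of -0.26 ± 0.13 (SE). Of 11 measured genes of heme synthesis and breakdown, 5 were higher on average in females and 6 in males. An unadjusted p under 0.05 was reached by 3, all on the side of males, or 27.3%, against 6.96% of all genes in either direction and 3.32% higher in males. The mean of this list lay between -0.04 and -0.01 in females and between 1e-04 and 0.03 in males. Alas1, the rate-limiting enzyme gene of heme synthesis outside red cells, averaged -0.17 ± 0.20 in females and 0.08 ± 0.08 in males (SD, n = 4 each), with no overlap between the sexes (difference -0.25 ± 0.09 SE, limma adjusted p = 0.64). Hmox2, the constitutive heme oxygenase gene, had a difference of -0.10, and so had Alad, the gene of the enzyme after Alas1 in heme synthesis.

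Of 11 measured epoxide hydrolase and eicosanoid genes, 8 had higher means in males. Ephx2, whose enzyme hydrolyses the epoxides that Cyp2c and Cyp2j enzymes make, averaged -0.08 ± 0.12 in females and 0.11 ± 0.13 in males (SD, n = 4 each; difference -0.19 ± 0.08 SE, limma adjusted p = 0.682). It was the 1 member of that list with an unadjusted p under 0.05. That is 9.09% of the list, against 6.96% of all genes in either direction and 3.32% higher in males. The lipoxygenase gene Alox12 had a difference of -0.09. Of 13 receptors and factors that induce P450 genes, 6 leaned to females and 7 to males, and the median difference was -6e-04. The aryl hydrocarbon receptor gene Ahr was at -0.07 and the bile acid receptor gene Nr1h4 at -0.04. Of 4 measured other targets of the aryl hydrocarbon receptor, Tiparp had a difference of 0.06 and Nqo1 one of -0.10. Of the P450 genes with other names, Cyp51 had a difference of 0.12 and the prostacyclin synthase gene Ptgis one of -0.03.

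No marker of another cell type passed the limma test after adjustment, so the differences that follow are given as values, and their part in the P450 values was not tested. Of 7 fibroblast markers, 5 leaned to females, yet the collagen genes Col3a1 and Col1a1 had differences of -0.44 and -0.44. Of 7 endothelial markers, 3 leaned to females, with Kdr at -0.19 and Cdh5 at -0.11. Of 6 smooth muscle and pericyte markers, 1 did, with Myh11 at -0.19 and Tagln at -0.15. Of 6 macrophage markers 4 did, with Cd68 at 0.08 and Mrc1 at 0.03, and of 5 measured lymphocyte markers 4 did, with Cd3g at 0.22 and Cd3e at -0.08. All 5 fast skeletal muscle genes leaned to males, with Pvalb at -0.24 and Mylpf at -0.24, and all 5 atrial genes to females, with Myl7 at 0.25 and Sln at 0.20. The lung genes Sftpc and Ager were at -0.09 and -0.07, the mesothelial genes Upk3b and Wt1 at 0.26 and -0.08, and the adrenal genes Star and Nr5a1 at 0.08 and -0.04. The erythroid gene Slc4a1 was at -0.06, and the cardiac muscle genes Myl2 and Tnni3 were at 0.03 and 0.02.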

How the data were processed

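Values were read from the deposited table, which holds log2 values for 34351 probe sets on 8 arrays and which the authors deposited centred, each probe set having a median of 0. Per the labels' protocols, biotin-labelled RNA was prepared by the array maker's standard procedure. How background was corrected, arrays normalized and probes summarized is not given in the sources used here. Nor is the log base, taken as 2. A single gene symbol was given for 23521 probe sets, several symbols for 1814, and 9016 were unnamed here. Probe sets of a gene were averaged, and 4 of the 89 P450 genes had more than 1.

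Females minus males was fitted over all 22180 genes by lmFit and eBayes of limma 3.58.1 (R 4.3.3). Sex was the only term, and p-values were adjusted by Benjamini-Hochberg at a threshold of 0.05. The code was tested on simulated data. Arrays give no read depth: their number limits precision. The members and lists were chosen with earlier results of these data known. Named were Cyp2e1 and Cyp2b10, members with an unadjusted p under 0.05, the 8 widest ranges, the 3 largest differences per direction in each role group, the 2 smallest p of each other list, and the 5 genes most correlated with Cyp2e1 and Cyp2b10. Other genes named were chosen after their values were seen. Alternatives covered normalization, centring, the variance model, array weights, the replicate block, probe sets, autosomal genes, marker covariates and each array left out. Filters on brightness were not run because centred values hold none.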

Additional observations from a re-analysis of the deposited data

Results flagged for a closer look

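In a check of 68 genes and the median of the P450 genes (138 groups of 4 hearts), 10 groups had 1 heart whose gap to its nearest neighbour, divided by the range of the group, was above 0.829. For genes not chosen by their values, about 1 in 20 such groups would be picked out by chance. Some of the 68 genes were named for wide ranges or small p, so that rate need not hold here. The flags are descriptions only. Among females, Cyp2b10 was at 2.06 in female 3 and between -0.38 and -0.03 in the others (ratio 0.857). Cyp2c23 was at 0.17 in female 1, against 0.0039 to 0.02 in the other females (0.917). Cyp26a1 was at 0.09 in female 4 (0.928), and Cyp27b1 at -0.04 in female 1 (0.863). Among males, Cyp4a29 was at 0.16 in male 3, against -0.0027 to 4e-04 in the others (0.981), and Cyp8b1 was at 0.18 in male 2 (0.854).

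Of the marker genes, the endothelial receptor gene Kdr was at 0.09 in female 2 (0.854) and the smooth muscle myosin gene Myh11 at -0.10 in female 1 (0.868). The T cell gene Cd3g was at 0.24 in female 1 (0.878), and the fast muscle light chain gene Mylpf at -0.31 in female 4 (0.916).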

How the results depend on the processing

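In the 18 alternatives run, 0 of the 29 named members passed an adjusted p under 0.05, and 20 of the 29 kept their direction in all of them. Cyp2e1 ran from 0.37 to 0.80 (adjusted p from 0.529 to 0.84) and from 0.49 to 0.80 with single arrays left out. Cyp2b10 ran from -0.20 to 0.61 with single arrays left out. The number of members with an unadjusted p under 0.05 was 5, and 3 with the replicate block, 3 without females 1 and 2, chosen after seeing the data, and 2 to 6 with single arrays left out. It was 3 without female 1, male 1 or male 2 and 2 without male 4. The share of all genes with such a p was 6.96% in the main fit and 7.64% with the block. That share was 6.33% without females 1 and 2, and 6.06% to 7.84% with single arrays left out. For females and males of the same number, deviations from the mean of their sex had r of 0.137, 0.0972, 0.00618 and 0.0906 over all genes. The male with the highest r carried the same number for females 1, 2 and 4, and was male 1 for female 3. The numbers were not taken as pairs in the main fit, and an effect shared by a replicate number was not tested beyond the block. With the block, Cyp4f14 and Cyp2c23 were no longer under an unadjusted p of 0.05, and no adjusted call changed. The unadjusted limma p of Cyp2e1 went from 0.0137 to 0.00526 with the block, that of Cyp4f13 from 0.0292 to 0.00965 and that of Cyp2d13 from 0.0302 to 0.0309. Cyp4f13, Cyp4f14, Cyp2d13 and Cyp2c23 each passed 0.05 unadjusted only in part of the fits with 1 array left out. The median difference of members was -0.0031 with the adipocyte covariate and -0.0058 with the liver covariate, and 0 to 0.0179 with single arrays left out. With single arrays left out, directions also turned for Cyp26b1 (-0.1056 to 0.256), Cyp2d40 (-0.1333 to 0.0321), Cyp2j6 (-0.0957 to 0.0341), Cyp4f15 (-0.0033 to 0.0934), Cyp17a1 (-0.0149 to 0.0266), Cyp27b1 (-0.0253 to 0.0317), Cyp26a1 (-0.0153 to 0.0267) and Cyp20a1 (-0.0097 to 0.0383). With the adipocyte covariate Cyp2j6 was 0.102, Cyp27b1 -0.0104 and Cyp26a1 -0.0215. With the liver covariate Cyp17a1 was -0.0407 and Cyp20a1 -0.033, and without females 1 and 2 they were -0.0477 and -0.0388. The causes of these turns were not tested. With 4 hearts a sex, differences near the median standard error of 0.0464 could not be told from 0.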

Other observations

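Apart from the 89 genes, 6 probe sets carried several symbols including a P450 gene and were named for none. Their differences, females minus males, ran from -0.05 to 0.06, and 0 had an unadjusted p under 0.05 (smallest 0.106). Another 9 genes had P450 symbols outside the rule, 4 of them marked as pseudogenes. Their differences ran from -0.06 to 0.12, and 0 had an unadjusted p under 0.05.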
